A study of Homo sapiens with 18 samples.

Results

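Interferon-stimulated genes are the genes that cells switch on after sensing interferon, the secreted alarm signal of viral infection. A set of 43 of them was followed here across prostate cancer cells with altered ONECUT2, a homeodomain transcription factor. For each gene, the probe set that maps to that gene alone and has the highest mean over all 18 arrays was taken. A probe set was found for 42 of the 43 genes, and STAT2 was not analysed here. Of these, 34 had a log2 value over 4 on at least 3 arrays and were tested, among 12159 genes tested of 19775 with a probe set. A log2 value under 4 is treated below as not above background. Fits and adjusted p-values cover all 12159 genes, the counts below cover the 34 that passed, and no count speaks for all 43.

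The arrays measured total RNA of 22Rv1 and LNCaP, both established human prostate cancer cell lines, with 3 arrays in each of 6 groups. The groups were 22Rv1 with an ONECUT2 overexpression construct against a 22Rv1 control labelled vehicle, LNCaP with the same construct against an LNCaP control labelled vehicle, and 22Rv1 labelled ONECUT2 shRNA against 22Rv1 labelled scramble shRNA. The construct was a lentiviral vector with the full-length ONECUT2 cDNA, and transduced cells were kept under puromycin to make stable lines. The labels do not say whether the vehicle controls were transduced or selected. The protocol names 2 shRNA clones against ONECUT2, and the array names refer to 1 of them. The protocol names a non-target control plasmid, while the array names of the scramble group carry another number, and the labels do not say whether these are the same construct. The labels leave it unsaid whether replicate arrays are separate cultures. Their spread, on which all p-values rest, may therefore be technical.

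Type I and type III interferons signal through the kinases JAK1 and TYK2 to a complex that includes STAT2 and IRF9 and binds a DNA element called ISRE. Interferon gamma signals through JAK1 and JAK2, and its targets carry a different element called GAS. The genes induced include RNA sensors, proteins that block viral RNA, the ubiquitin-like protein ISG15 with its enzymes, and the machinery that loads peptides onto HLA class I.

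Several facts of the arrays bear on what follows. The arrays had medians from 3.26 to 3.34, and each array correlated with the others of its group at a mean r of 0.997 to 0.998, except in LNCaP overexpression. There replicate 1 had a mean r of 0.978 and the other arrays 0.985 and 0.988, so its values are set apart where they matter. The ONECUT2 probe set with the highest mean gave 8.59, 8.81 and 8.85 in 22Rv1 overexpression, against 8.23, 8.15 and 8.25 in 22Rv1 control (log2 change 0.54 ± 0.16 SE, adjusted p = 0.00702). It gave 7.23, 7.31 and 7.28 in LNCaP overexpression, against 6.58, 6.53 and 6.72 in LNCaP control (0.66 ± 0.16, adjusted p = 0.00153). In the arrays labelled ONECUT2 shRNA it gave 8.46, 9.0 and 9.12, against 6.63, 6.71 and 7.08 in the arrays labelled scramble (2.05 ± 0.16, adjusted p = 7.32e-08). ONECUT2 thus goes against the shRNA label, and the library names are used below only as labels. Of the 6 leukocyte markers and 4 endothelial markers measured, 0 were over 4 on all arrays of any group, while 6 or 7 of 7 prostate luminal markers were, in every group. The luminal summed signal was 17100 to 17300 in 22Rv1 overexpression against 10400 to 10700 in its control. It was 15400 to 18700 in LNCaP overexpression against 24200 to 24700 in its control. KLK3 read 4.17, 4.25 and 4.45 in 22Rv1 overexpression, against 7.59, 7.19 and 7.17 in 22Rv1 control. In LNCaP overexpression it read 9.13, 5.08 and 5.51, against 13.26, 13.25 and 13.25 in LNCaP control. KLK2 was also lower in both lines, while EPCAM was higher in both. Of 5 stromal markers, COL1A1 alone was over 4 on all overexpression arrays. Their summed signal was 871 to 931 in 22Rv1 overexpression against 270 to 303 in its control. It was 1570 to 4120 in LNCaP overexpression against 203 to 315 in its control. The stromal markers did not move together. In 22Rv1 overexpression COL1A1 read 9.76, 9.81 and 9.71, against 7.76, 7.51 and 7.66 in 22Rv1 control. LUM read 2.47, 2.46 and 2.31, against 5.64, 5.58 and 5.74, and COL3A1 and DCN were also lower. In LNCaP the stromal markers other than COL1A1 were under 4 in both groups. The part of these signals in the results was not tested. The beta-actin 3′ minus 5′ difference, a sign of RNA integrity and labelling, was 8.06 ± 0.70 (SD, n = 3) in 22Rv1 overexpression against 4.11 ± 0.41 in 22Rv1 control, and 2.85 ± 0.56 in LNCaP overexpression against 2.94 ± 0.25 in LNCaP control. The same difference for GAPDH moved far less. Its 22Rv1 overexpression arrays gave -0.43 ± 0.13 and the 22Rv1 controls -0.7 ± 0.09, while both LNCaP groups stood at -0.68 ± 0.07. The part of RNA integrity or labelling in the 22Rv1 results was not tested.

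The promoters of these genes were searched for the 2 elements, and the windows below were chosen so that the letters can be read beside the direction in which each gene moved. RefSeq promoters (GRCh38.p14, 250 bases before to 50 after the gene start) were available for 35 of the 43 genes. The ISRE was searched as 2 copies of GAAA with any 2 bases between them, and the GAS as TTCNNNGAA, each on both strands, and matches of the 2 motifs can overlap. The ISRE letters were found in 24 of the 35 genes (68.6%), against 1195 of 27305 genes in the table (4.38%). The GAS letters were found in 13 of the 35 (37.1%), against 2560 of 27305 (9.38%). Each line gives 60 bases upstream of the start, 5′ to 3′ on the gene's strand, with the matched letters in capitals. An ISRE match on the opposite strand reads TTTC, 2 bases and TTTC.
First come genes that rose with ONECUT2 in both lines, shown for an ISRE match.
IFI6, chr1:27672294-27672353, minus strand: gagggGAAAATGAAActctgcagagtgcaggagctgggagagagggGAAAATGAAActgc
ISG15, chr1:1013362-1013421, plus strand: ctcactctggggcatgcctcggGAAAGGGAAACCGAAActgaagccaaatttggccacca
IFIT3, chr10:89327833-89327892, plus strand: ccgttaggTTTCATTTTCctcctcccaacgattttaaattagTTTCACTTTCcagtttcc
HERC5, chr4:88456972-88457031, plus strand: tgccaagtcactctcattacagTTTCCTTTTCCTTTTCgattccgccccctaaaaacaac
TAP1, chr6:32853801-32853860, minus strand: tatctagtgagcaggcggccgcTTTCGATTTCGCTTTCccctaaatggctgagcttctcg
Next come genes that rose in both lines, shown for a GAS match.
IRF1, chr5:132490864-132490923, minus strand: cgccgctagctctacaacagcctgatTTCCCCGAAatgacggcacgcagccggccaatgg
IFI35, chr17:43006724-43006783, plus strand: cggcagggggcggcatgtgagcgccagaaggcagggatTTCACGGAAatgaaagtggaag
Next come a gene that rose in LNCaP only, one that rose in 22Rv1 only, and one called in opposite directions.
IFIT1, chr10:89392488-89392547, plus strand: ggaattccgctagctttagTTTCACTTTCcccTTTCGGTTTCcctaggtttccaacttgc
MX1, chr21:41431829-41431888, plus strand: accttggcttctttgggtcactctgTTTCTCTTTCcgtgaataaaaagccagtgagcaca
DDX60, chr4:168318789-168318848, minus strand: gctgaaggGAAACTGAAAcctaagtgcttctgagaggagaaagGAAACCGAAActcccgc
Last come genes that fell in at least 1 line.
IFIH1, chr2:162318806-162318865, minus strand: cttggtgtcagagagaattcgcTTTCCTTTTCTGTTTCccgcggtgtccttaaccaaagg
OAS3, chr12:112938306-112938365, plus strand: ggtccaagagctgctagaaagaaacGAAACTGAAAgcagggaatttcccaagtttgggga
IFI44, chr1:78649729-78649788, plus strand: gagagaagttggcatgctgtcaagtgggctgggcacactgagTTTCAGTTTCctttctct
SAMD9, chr7:93118081-93118140, minus strand: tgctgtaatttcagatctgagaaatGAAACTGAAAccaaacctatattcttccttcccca
The ISRE letters were in 7 of the 13 genes with a promoter that rose in both lines (53.8%) and in 7 of the 7 that fell in at least 1 line and rose in neither. They were also in 6 of the 7 other tested genes (85.7%), most of which rose in 1 line only, and in 4 of the 8 not tested. The genes that fell include IFI44 and SAMD9, whose calls are given no weight below, and PARP9, where not every promoter has the letters. The genes that rose in both lines include PARP14, which was under 4 on all LNCaP arrays. The letters are thus not particular to genes that fell. These counts describe letters in 1 window, and they do not say which factor was bound.

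ONECUT2 overexpression in 22Rv1 was accompanied by higher levels of 18 interferon-stimulated genes and lower levels of 4, with 12 not passing the test. The largest rise was that of IFI6, a small membrane protein, at least 40.5-fold, and IFI35 and HERC5 also rose by more than 2 on the log2 scale. The 4 that fell were IFIH1, OAS3, IFITM1 and PARP9. A gene is called here when its limma Benjamini-Hochberg adjusted p over all genes tested is under 0.05. The share called was 64.7% of the 34, near the 60.8% of all genes called in this comparison. The share called higher was 52.9% against a background of 36.5%, and the share called lower was 11.8% against 24.3%. The median change was 0.60 for the 34 genes and 0.10 for all genes tested. The beta-actin difference and the COL1A1 signal given above moved with this comparison, while LUM, COL3A1 and DCN went the other way. The GAPDH difference moved far less than that of beta-actin. In bulk RNA, a larger share of responding cells and more RNA per cell cannot be told apart.

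In LNCaP, 22 of the genes were higher with ONECUT2 and 6 lower, with 6 not passing the test. The rises included IFI6, IFIT3, IFIT1, IFIT2 and ISG15, all by more than 3 on the log2 scale. The 6 that fell were IFIH1, OAS3, IFI44, SAMD9, DDX60 and EPSTI1. The LNCaP counts and shares here and below include IFIT1, IFI44 and SAMD9, which passed the filter only with the LNCaP group where each is high. Their calls had that level built in. The share called was 82.4%, against 62.2% of all genes. The share called higher was 64.7% against a background of 34.1%, and the share called lower was 17.6% against 28.0%. The median change was 0.92, against 0.09 for all genes tested. The COL1A1 signal moved with this comparison too. The beta-actin difference did not rise here, at 2.85 ± 0.56 (SD) in overexpression against 2.94 ± 0.25 in control, a shift smaller than its SD. Replicate 1 of LNCaP overexpression lay at least 0.5 below the mean of the other arrays of its group for 16 of the 34 genes, at least 0.5 above it for 8 and within 0.5 for 10. Without it 25 genes were higher and 8 lower, including all 28 called with it, each in the same direction. The 25 include TRIM22, which would not have passed the filter without the LNCaP overexpression arrays.

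The 2 overexpression comparisons share no arrays. In all, 16 of the 34 genes (47.1%) were called higher in both lines, against 2649 of 12159 genes tested (21.8%). The 16 include PARP14, whose LNCaP arrays were all under 4. These genes were 88.9% of the genes higher in 22Rv1 and 72.7% of those higher in LNCaP. Over all genes the shared rises were 59.7% of those higher in 22Rv1 and 63.8% of those higher in LNCaP. IFIH1 and OAS3 were lower in both lines (5.88% of the 34, against 14.1% of all genes). DDX60 was the 1 gene called in opposite directions (2.94%, against 5.56% of all genes). MX2, HERC6 and TRIM22 were called in neither.

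**Figure D1:**
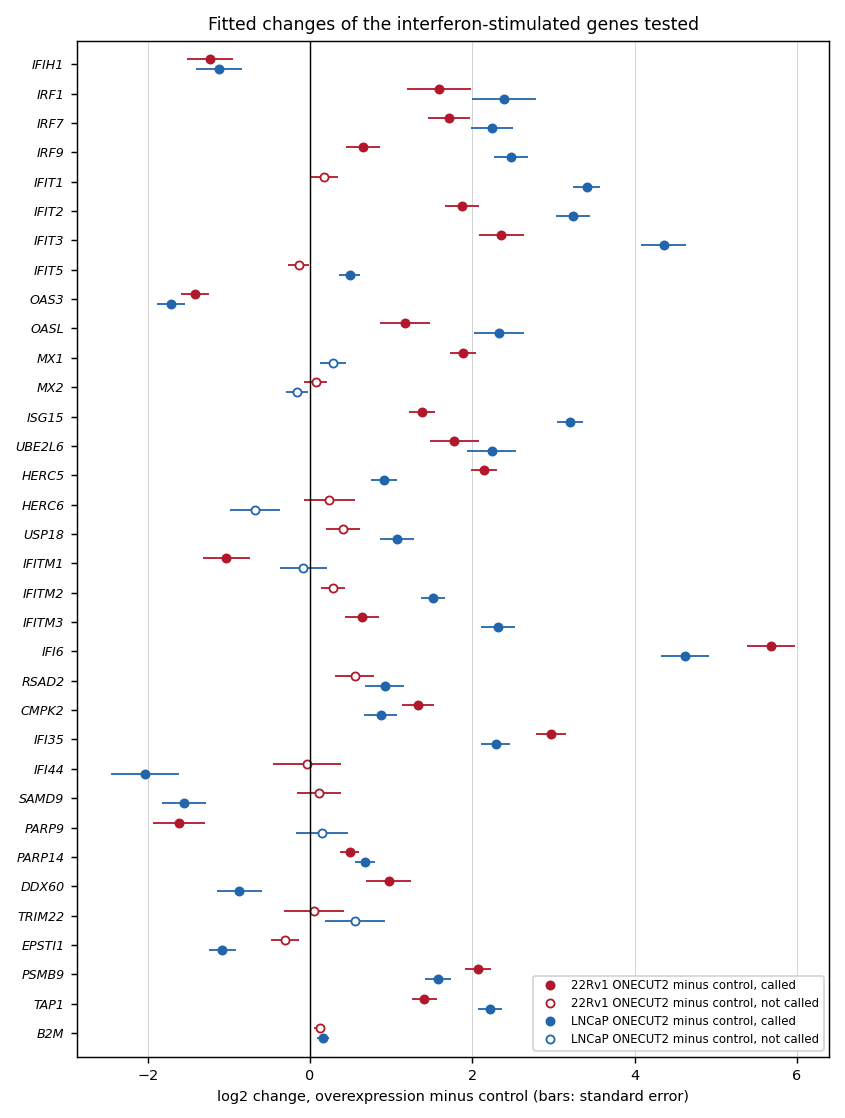
Fitted log2 change (ONECUT2 overexpression minus control) of the 34 genes tested, in 22Rv1 (red) and LNCaP (blue), with bars for the standard error and filled points for genes called. Most points lie right of 0, IFI6 lies farthest right in both lines, and IFIH1 and OAS3 lie left of 0 in both.

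Among the sensors and factors, the interferon regulatory factors rose and the RNA sensor fell. IRF7, which drives interferon transcription, read 5.36, 5.54 and 5.40 in 22Rv1 overexpression, against 3.58, 3.53 and 4.06 in 22Rv1 control (log2 change 1.71 ± 0.26 SE, adjusted p = 2.37e-05). The LNCaP overexpression arrays gave 6.07, 7.49 and 7.19, against 4.79, 4.60 and 4.64 in LNCaP control (2.24 ± 0.26, adjusted p = 1.23e-06). The groups did not overlap in either line.
IRF1, a factor induced by interferon gamma, read 5.70, 5.35 and 5.88 in 22Rv1 overexpression, against 4.07, 4.14 and 3.96 in 22Rv1 control (1.59 ± 0.39, adjusted p = 0.00217). LNCaP overexpression gave 4.95, 7.39 and 6.78, against 3.99, 4.07 and 3.90 in LNCaP control (2.39 ± 0.39, adjusted p = 5.66e-05). Replicate 1 was the lowest of the LNCaP overexpression arrays, and without it the change was 3.10.
IRF9, the DNA-binding partner of STAT2, read 6.0, 7.05 and 6.92 in LNCaP overexpression, against 4.43, 4.11 and 4.01 in LNCaP control (2.48 ± 0.21, adjusted p = 4.45e-08). In 22Rv1 its change was 0.65 ± 0.21 (adjusted p = 0.0151), again with no overlap.
IFIH1, which encodes the long double-stranded RNA sensor MDA5, went the other way. It read 5.66, 5.57 and 5.69 in 22Rv1 overexpression, against 6.80, 6.77 and 7.05 in 22Rv1 control (-1.23 ± 0.28, adjusted p = 0.00119). In LNCaP the overexpression arrays read 6.47, 4.93 and 5.22, against 6.80, 6.53 and 6.66 in LNCaP control (-1.12 ± 0.28, adjusted p = 0.00242). Every overexpression array was below every control array of its line, although LNCaP replicate 1 lay close to the controls. In a fit of the LNCaP arrays alone the LNCaP call was lost (-1.12, adjusted p = 0.058).

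The IFIT genes encode proteins that bind viral RNA ends and block their translation, and the 4 genes lie in 1 cluster on chromosome 10. All 4 rose in LNCaP (34.1% of all genes did), and IFIT2 and IFIT3 rose in 22Rv1 (36.5% of all genes did). IFIT3 read 9.32, 10.40 and 9.88 in LNCaP overexpression, against 5.88, 5.36 and 5.30 in LNCaP control (4.36 ± 0.28, adjusted p = 1.4e-09), a 20.5-fold rise. In 22Rv1 overexpression it read 5.20, 5.10 and 5.27, against 3.04, 2.53 and 2.91 in 22Rv1 control, all under 4, so the rise is at least 2.28-fold (adjusted p = 2.22e-06). The groups were apart in both lines.
IFIT2 read 8.01, 7.32 and 6.98 in LNCaP overexpression, against 4.37, 4.25 and 3.98 in LNCaP control (3.24 ± 0.21, adjusted p = 1.41e-09). In 22Rv1 overexpression it read 4.83, 4.72 and 4.67, against 2.74, 2.68 and 3.17 in 22Rv1 control, a rise of at least 1.67-fold (adjusted p = 1.08e-06). Averaging each gene's probe sets, some of which lie near background, gave smaller LNCaP changes of 2.69 for IFIT3 and 1.98 for IFIT2, and 22Rv1 changes of 1.29 and 0.87.
IFIT1 separated the lines. It read 6.94, 7.72 and 7.28 in LNCaP overexpression, against 3.75, 3.89 and 4.04 in LNCaP control (3.41 ± 0.17, adjusted p = 3.87e-11). It passed the filter only with these overexpression arrays, so its call had that level built in. In 22Rv1 it was under 4 on all 6 arrays, at 2.77, 2.61 and 2.67 in overexpression and 2.55, 2.52 and 2.49 in control. IFIT5 changed by 0.49 ± 0.13 in LNCaP (adjusted p = 0.00426) and by -0.14 ± 0.13 in 22Rv1 (adjusted p = 0.369).

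The OAS genes encode sensors that make 2′-5′ oligoadenylates to activate RNase L, apart from OASL, which lacks that activity. OAS1 and OAS2 did not pass the filter, while OASL rose and OAS3 fell in both lines. OASL read 5.71, 5.18 and 5.90 in 22Rv1 overexpression, against 4.49, 4.52 and 4.26 in 22Rv1 control (1.17 ± 0.31, adjusted p = 0.00335). In LNCaP overexpression it read 5.76, 7.50 and 7.11, against 4.30, 4.69 and 4.40 in LNCaP control (2.33 ± 0.31, adjusted p = 5.84e-06). Overexpression and control arrays were apart in both lines.
OAS3 read 3.32, 3.17 and 3.50 in 22Rv1 overexpression, all under 4, against 4.70, 4.92 and 4.61 in 22Rv1 control, a fall of at least 1.67-fold (adjusted p = 2.04e-06). The LNCaP overexpression arrays gave 4.19, 4.12 and 3.58, against 5.85, 5.64 and 5.56 in LNCaP control (-1.71 ± 0.17, adjusted p = 2.21e-07). All overexpression arrays were below all control arrays. The mean over its probe sets moved the LNCaP change to -0.95, and that of OASL to 3.01.
MX1, a dynamin-like GTPase that traps viral nucleocapsids, rose in 22Rv1 only. It read 7.63, 7.18 and 7.28 in 22Rv1 overexpression, against 5.49, 5.48 and 5.49 in 22Rv1 control (1.88 ± 0.16, adjusted p = 4.5e-08). In LNCaP its change was 0.28 ± 0.16 (adjusted p = 0.136), and without replicate 1 it was 0.38 and called (adjusted p = 0.0469). MX2, its neighbour on chromosome 21, changed by 0.07 in 22Rv1 and -0.16 in LNCaP, neither called.

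Of ISG15 and its conjugation enzymes, 3 of 5 were called higher in 22Rv1 and 4 of 5 in LNCaP, with 0 called lower. Of all genes, 36.5% were called higher and 24.3% lower in 22Rv1, and 34.1% higher and 28.0% lower in LNCaP. ISG15, the ubiquitin-like modifier itself, read 11.56, 11.33 and 11.39 in 22Rv1 overexpression, against 9.99, 10.06 and 10.12 in 22Rv1 control (1.38 ± 0.16, adjusted p = 1.32e-06). LNCaP overexpression gave 11.31, 12.03 and 12.21, against 8.58, 8.66 and 8.68 in LNCaP control (3.20 ± 0.16, adjusted p = 4.18e-11). The LNCaP control arrays were the lowest of the 4 groups and the rise there was 9.21-fold.
UBE2L6, the E2 enzyme that carries ISG15, read 6.47, 6.21 and 6.16 in 22Rv1 overexpression, against 4.52, 4.45 and 4.55 in 22Rv1 control (1.78 ± 0.30, adjusted p = 7.61e-05). In LNCaP the overexpression arrays read 5.98, 7.63 and 7.46, against 5.10, 4.72 and 4.54 in LNCaP control (2.24 ± 0.30, adjusted p = 6.89e-06). Neither line showed overlap.
HERC5, the E3 ligase that transfers ISG15, read 8.11, 8.30 and 8.15 in 22Rv1 overexpression, against 6.07, 6.0 and 6.03 in 22Rv1 control (2.15 ± 0.16, adjusted p = 9.01e-09). Its LNCaP change was 0.91 ± 0.16 (adjusted p = 0.000113), from a control level that was already higher than in 22Rv1. HERC6, next to it on chromosome 4, was not called in either line (0.24 ± 0.31 in 22Rv1 and -0.68 ± 0.31 in LNCaP), and without replicate 1 it was called lower in LNCaP at -1.22 (adjusted p = 2.41e-06).
USP18, the protease that removes ISG15 and restrains the receptor, read 4.57, 5.77 and 5.50 in LNCaP overexpression, against 4.21, 4.11 and 4.30 in LNCaP control (1.07 ± 0.21, adjusted p = 0.000401). Its 22Rv1 change was 0.41 ± 0.21 (adjusted p = 0.114).

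Among the membrane proteins that block viral entry, IFITM3 rose in both lines, IFITM2 rose in LNCaP and IFITM1 fell in 22Rv1, although the 3 genes are neighbours on chromosome 11. The IFITM genes are close in sequence, so probe sets may read more than 1 of them. IFITM3 read 11.86, 13.10 and 12.88 in LNCaP overexpression, against 10.22, 10.27 and 10.40 in LNCaP control (2.32 ± 0.21, adjusted p = 8.87e-08). In 22Rv1 its change was 0.64 ± 0.21 (adjusted p = 0.015). The groups were apart in both.
IFITM2 read 10.25, 10.91 and 10.91 in LNCaP overexpression, against 9.22, 9.17 and 9.13 in LNCaP control (1.52 ± 0.15, adjusted p = 1.78e-07). In 22Rv1 its change was 0.28 ± 0.15 (adjusted p = 0.107).
IFITM1 read 6.57, 6.48 and 6.52 in 22Rv1 overexpression, against 7.78, 7.35 and 7.52 in 22Rv1 control (-1.03 ± 0.29, adjusted p = 0.0064). All 3 overexpression arrays were below the controls. In LNCaP it was -0.08 ± 0.29 (adjusted p = 0.83) and was called higher without replicate 1, at 0.43 (adjusted p = 0.0232). BST2 did not pass the filter.
IFI6, which protects the endoplasmic reticulum from viral replication, had the largest fitted rise in both lines. It read 9.49, 9.15 and 9.39 in 22Rv1 overexpression, against 3.44, 3.91 and 3.63 in 22Rv1 control (adjusted p = 2.25e-10). In LNCaP overexpression it read 10.63, 12.30 and 12.17, against 6.92, 7.21 and 7.10 in LNCaP control, a 24.6-fold rise (4.62 ± 0.30, adjusted p = 1.44e-09). The 22Rv1 controls were all under 4 and the LNCaP controls all near 7. Its relative IFI27 did not pass the filter.
CMPK2 and RSAD2 lie side by side on chromosome 2, and the enzymes they encode, a nucleotide kinase and viperin, make a chain-terminating nucleotide. CMPK2 read 9.61, 9.67 and 9.39 in 22Rv1 overexpression, against 8.31, 8.17 and 8.19 in 22Rv1 control (1.33 ± 0.20, adjusted p = 3.04e-05), and rose by 0.87 ± 0.20 in LNCaP (adjusted p = 0.00144). RSAD2 rose in LNCaP, by at least 1.09-fold since its controls were all under 4 (adjusted p = 0.00294). In 22Rv1 it was at 4.49, 4.24 and 4.12 in overexpression and 3.61, 3.81 and 3.78 in control (adjusted p = 0.0552).

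**Figure D2:**
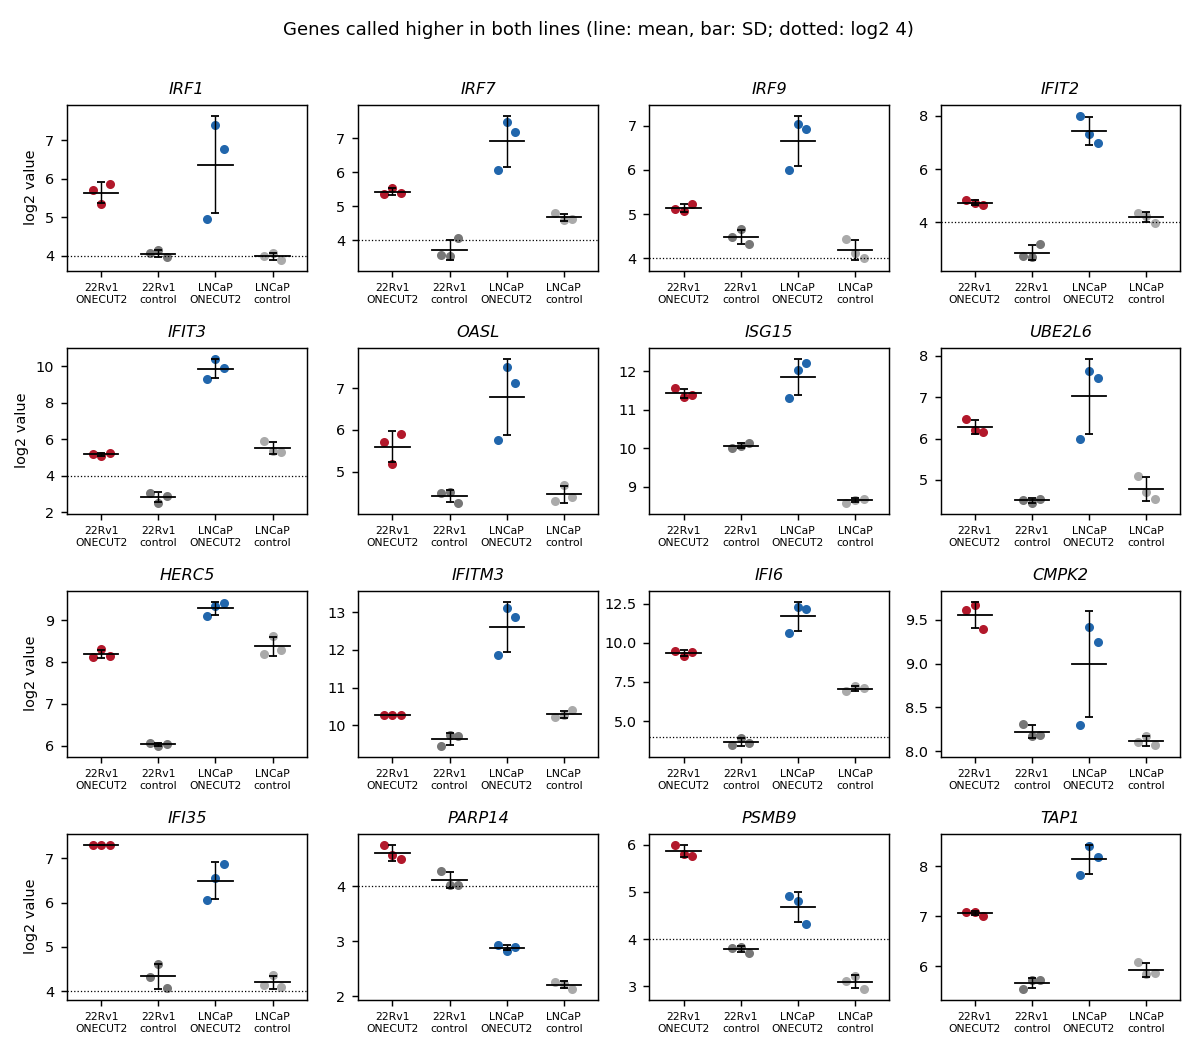
Log2 values on each array for the 16 genes called higher in both lines, with the mean (line), the SD (bar) and the background level of 4 (dotted). IFI6, IFI35 and HERC5 show wide gaps in 22Rv1, and replicate 1 of LNCaP overexpression is the lowest of its group for IRF1, OASL and UBE2L6. PARP14 is under 4 on all LNCaP arrays.

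The other effectors moved in both directions, with 3 higher and 1 lower of 8 tested in 22Rv1, and 2 higher and 4 lower in LNCaP. Of all genes, 36.5% were higher and 24.3% lower in 22Rv1, and 34.1% higher and 28.0% lower in LNCaP. The count higher in 22Rv1 is near the share of all genes, and the 4 lower in LNCaP include IFI44 and SAMD9. IFI35, a protein of the interferon response that partners with NMI, read 7.31, 7.30 and 7.30 in 22Rv1 overexpression, against 4.32, 4.62 and 4.06 in 22Rv1 control (2.97 ± 0.18, adjusted p = 9.78e-10). The LNCaP overexpression arrays gave 6.06, 6.55 and 6.88, against 4.14, 4.37 and 4.10 in LNCaP control (2.29 ± 0.18, adjusted p = 1.45e-08). The groups were apart in both lines.
IFI44 read 5.93, 3.55 and 3.72 in LNCaP overexpression, against 6.75, 6.44 and 6.09 in LNCaP control (-2.03 ± 0.42, adjusted p = 0.000496). Replicate 1 lay near the controls, and without it the change was -2.80. The mean over its probe sets gave -1.0. In 22Rv1 all IFI44 values were under 4, and without the LNCaP control arrays IFI44 would not have passed the filter.
SAMD9, a host factor against poxviruses, read 3.63, 2.39 and 2.65 in LNCaP overexpression, all under 4, against 5.09, 4.16 and 4.08 in LNCaP control, at least 1.36-fold lower. It is the 1 gene of the 34 with all its values over 4 in a single group, the LNCaP control arrays where it is high. Its call had that level built in and is given no weight. IFIT1 and IFI44 had 4 arrays over 4 and would not have passed without the LNCaP group where each is high. Their LNCaP calls had that level built in too, and are likewise given no weight. EPSTI1 read 4.52, 4.36 and 3.89 in LNCaP overexpression, against 5.25, 5.57 and 5.19 in LNCaP control (-1.08 ± 0.17, adjusted p = 3.39e-05). SAMD9 and EPSTI1 had all LNCaP overexpression arrays below the controls, and neither was called in 22Rv1.
PARP9, an ADP-ribosyltransferase family member that works with the E3 ligase DTX3L, read 6.33, 6.45 and 6.33 in 22Rv1 overexpression, against 7.95, 8.05 and 7.97 in 22Rv1 control (-1.62 ± 0.32, adjusted p = 0.000371). In LNCaP overexpression it ranged widely, at 8.54, 6.43 and 7.28, against 7.25, 7.40 and 7.15 in LNCaP control (adjusted p = 0.709). Without replicate 1 it was called lower there, at -0.41 (adjusted p = 0.0311). PARP14, 2 protein-coding genes away on chromosome 3, rose by 0.49 ± 0.12 in 22Rv1 (adjusted p = 0.00264), and its LNCaP call (0.68, adjusted p = 0.000162) rests on arrays all under 4.
DDX60, a helicase that assists RNA sensing, rose by 0.97 ± 0.28 in 22Rv1 (adjusted p = 0.00747) and fell by 0.87 on the log2 scale in LNCaP (SE 0.28, adjusted p = 0.0146). The LNCaP overexpression arrays at 6.89, 5.46 and 5.94 overlapped the controls at 7.02, 6.86 and 7.01. TRIM22, a ubiquitin ligase, was called only in LNCaP without replicate 1, at 1.05 (adjusted p = 0.0032). It had 4 arrays over 4 and would not have passed the filter without the LNCaP overexpression arrays. This call had that level built in and is given no weight.

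Of the 3 antigen presentation genes tested, 2 were called higher in 22Rv1 (36.5% of all genes were) and 3 in LNCaP (34.1% of all genes). TAP1, a subunit of the peptide transporter, read 7.09, 7.09 and 7.01 in 22Rv1 overexpression, against 5.55, 5.72 and 5.72 in 22Rv1 control (1.41 ± 0.15, adjusted p = 4.12e-07). LNCaP overexpression gave 7.83, 8.41 and 8.19, against 6.08, 5.84 and 5.86 in LNCaP control (2.22 ± 0.15, adjusted p = 1.5e-09). The arrays did not overlap.
PSMB9, an immunoproteasome subunit that neighbours TAP1 on chromosome 6, read 6.0, 5.81 and 5.77 in 22Rv1 overexpression, against 3.82, 3.84 and 3.71 in 22Rv1 control, at least 3.63-fold higher (adjusted p = 2.04e-08). In LNCaP the overexpression arrays read 4.92, 4.81 and 4.32, against 3.12, 3.23 and 2.95 in LNCaP control, at least 1.60-fold higher (adjusted p = 4.11e-07). Its controls were under 4 in both lines. PSMB8, beside them, did not pass the filter. B2M, the light chain of HLA class I, changed by 0.16 ± 0.07 in LNCaP (adjusted p = 0.0444) with overlapping arrays and by 0.12 ± 0.07 in 22Rv1 (adjusted p = 0.144).

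**Figure D3:**
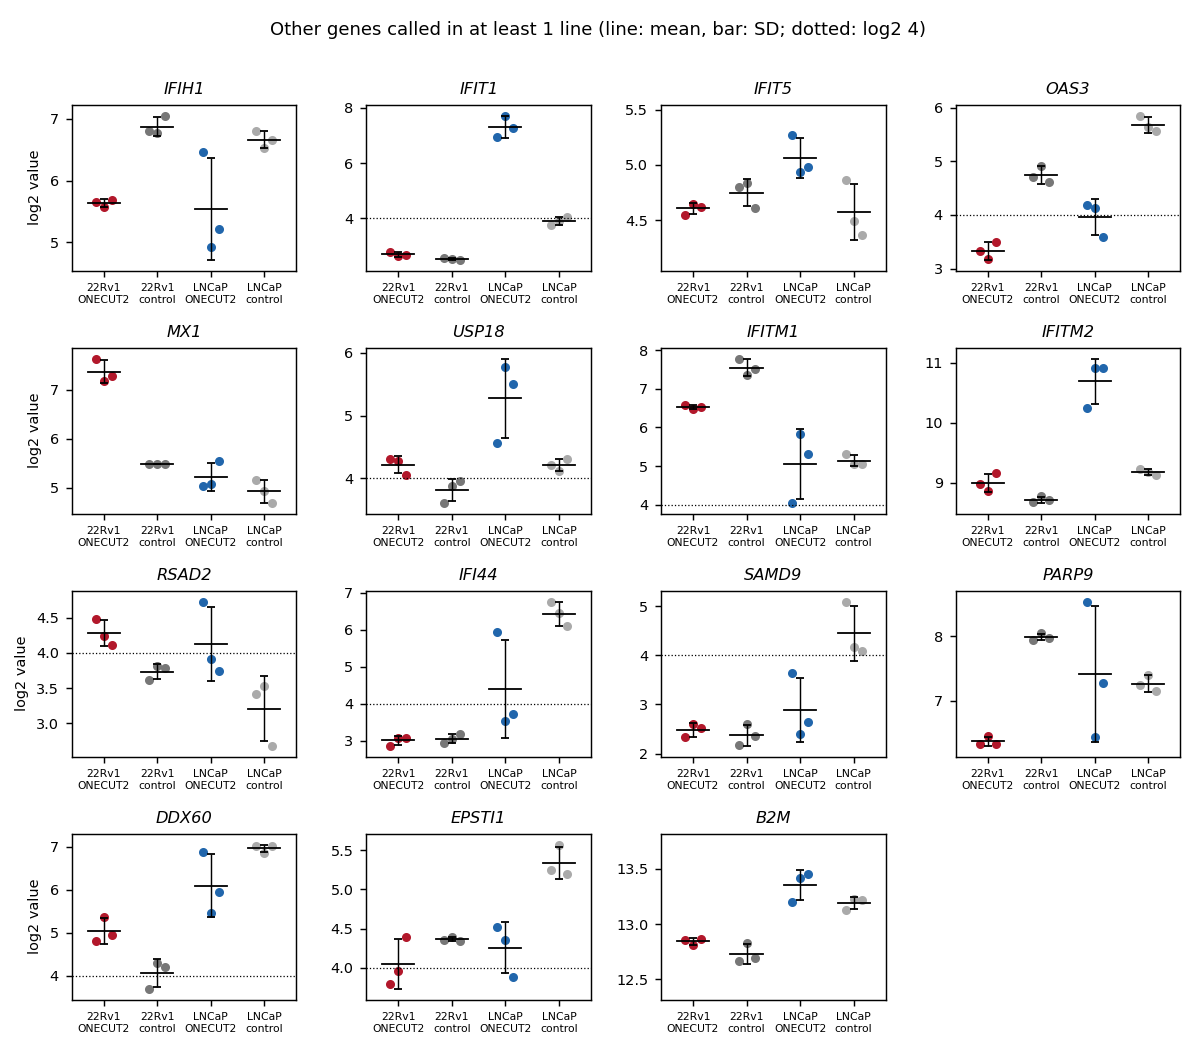
Log2 values on each array for the 15 other genes called in at least 1 line, with the mean (line), the SD (bar) and the background level of 4 (dotted where it falls in range). IFIH1 and OAS3 are lower with ONECUT2 in both lines, IFIT1 is high only in LNCaP overexpression, and MX1 is high only in 22Rv1 overexpression.

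The 8 genes that did not pass the filter were OAS1, OAS2, BST2, IFI27, IFI44L, SAMD9L, XAF1 and PSMB8. Their values ran from 1.19 to 4.67, and 4 of them were over 4. These were 4.02 and 4.06 for BST2 in arrays labelled scramble, and 4.07 and 4.67 for PSMB8 in LNCaP overexpression.

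The ONECUT2 change, taken with its sign, differed between the lines for 18 of the 34 genes (52.9%), against 44.7% of all genes. The test was of the difference, LNCaP minus 22Rv1, in the same fit. This difference was above 0 for 11 (32.4%, against 18.1% of all genes) and below 0 for 7 (20.6%, against 26.6%). Its sign does not say where the change was larger. IFI44 changed by -2.03 in LNCaP and -0.04 in 22Rv1, and PARP9 by 0.15 and -1.62. The counts include IFIT1, IFI44 and SAMD9, whose calls had their LNCaP level built in by the filter. IFIT1 differed most, by 3.25 ± 0.24 (LNCaP minus 22Rv1, adjusted p = 3.07e-08), with its 22Rv1 values all under 4. It passed the filter only with the LNCaP overexpression arrays, so this difference had that level built in. ISG15 differed by 1.83 ± 0.22 (adjusted p = 7.82e-06), IRF9 by 1.83 ± 0.30 (adjusted p = 0.000141) and IFITM3 by 1.68 ± 0.30 (adjusted p = 0.00028). In the other direction, MX1 differed by -1.60 ± 0.23 (adjusted p = 3.28e-05), HERC5 by -1.24 ± 0.22 (adjusted p = 0.000329) and DDX60 by -1.84 ± 0.40 (adjusted p = 0.00155). The mean over the 3 arrays was highest in LNCaP overexpression for 18 genes, in LNCaP control for 6, in 22Rv1 overexpression for 5, in arrays labelled ONECUT2 shRNA for 3 and in arrays labelled scramble for 2. Without replicate 1 of LNCaP overexpression the count with a difference above 0 was 17. The OASL difference (1.16, adjusted p = 0.0388) was lost without any of 8 single arrays, with adjusted p from 0.052 to 0.105, and in the fit of only the 12 arrays compared (adjusted p = 0.095).

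Without the ONECUT2 construct the lines already differed. In LNCaP control, 16 of the genes were higher and 5 lower than in 22Rv1 control, 61.8% against 63.6% of all genes. The share higher was 47.1% against a background of 30.2%, and the share lower was 14.7% against 33.5%. The 22Rv1 control arrays are the same as in the overexpression comparison, so the values are set side by side only. The 16 include IFI44, SAMD9 and TRIM22, which would not have passed the filter without the LNCaP control arrays. Their calls here had that level built in and are given no weight. IFI6 was at least 8.46-fold higher in LNCaP control (adjusted p = 4.41e-08), IFI44 at least 5.39-fold higher (adjusted p = 2.75e-06) and HERC6 at least 3.89-fold higher (adjusted p = 1.02e-06). DDX60 was higher by 2.89 ± 0.28 (adjusted p = 1.75e-07) and HERC5 by 2.34 ± 0.16 (adjusted p = 1.81e-09). IFITM1 was lower by -2.42 ± 0.29 (adjusted p = 2.06e-06), as was ISG15 by -1.41 ± 0.16 (adjusted p = 7.77e-07).

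Between the arrays labelled ONECUT2 shRNA and those labelled scramble, 10 of the genes were higher and 2 lower, 35.3% against 29.5% of all genes. The share called higher was 29.4% against 13.4%, and the share called lower was 5.88% against 16.1%. The median change was 0.03, against -0.03 for all genes. Since ONECUT2 itself was higher in the arrays labelled shRNA, no direction relative to ONECUT2 loss is drawn. IFIH1 had the largest change. It read 7.33, 7.63 and 7.64 in arrays labelled ONECUT2 shRNA, against 5.53, 4.90 and 5.43 in arrays labelled scramble (2.25 ± 0.28, adjusted p = 1.86e-05). The 22Rv1 control arrays lay between them. The mean over its probe sets gave 0.92.
HERC5 read 5.62, 5.17 and 5.87 in arrays labelled ONECUT2 shRNA, against 7.45, 7.41 and 7.30 in arrays labelled scramble (-1.83 ± 0.16, adjusted p = 3.59e-07). RSAD2 was also lower, by at least 1.36-fold with all shRNA-labelled arrays under 4 (adjusted p = 0.00598).
All 3 IFITM genes were higher. IFITM2 read 9.08, 9.06 and 9.06 in arrays labelled ONECUT2 shRNA, against 8.10, 7.95 and 7.80 in arrays labelled scramble (1.12 ± 0.15, adjusted p = 2.97e-05). IFITM1 read 8.05, 8.08 and 7.94, against 7.15, 7.14 and 6.77 in arrays labelled scramble (1.0 ± 0.29, adjusted p = 0.0165), and it lost its call without shRNA replicate 2 (adjusted p = 0.0508) or scramble replicate 3 (adjusted p = 0.0685). IFITM3 differed by 0.97 ± 0.21 (adjusted p = 0.00239). None of these genes overlapped between the groups.
The other genes called higher were TAP1 (0.71 ± 0.15, adjusted p = 0.00144), MX1 (0.61 ± 0.16, adjusted p = 0.00805), OAS3 (0.53 ± 0.17, adjusted p = 0.0252), PSMB9 (0.48 ± 0.16, adjusted p = 0.0352), IFIT5 (0.46 ± 0.13, adjusted p = 0.0165) and B2M (0.21 ± 0.07, adjusted p = 0.0276). IFI6, IFI35 and ISG15, which rose with overexpression in both lines, changed by -0.32, -0.13 and -0.12 and did not pass the test.

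**Figure D4:**
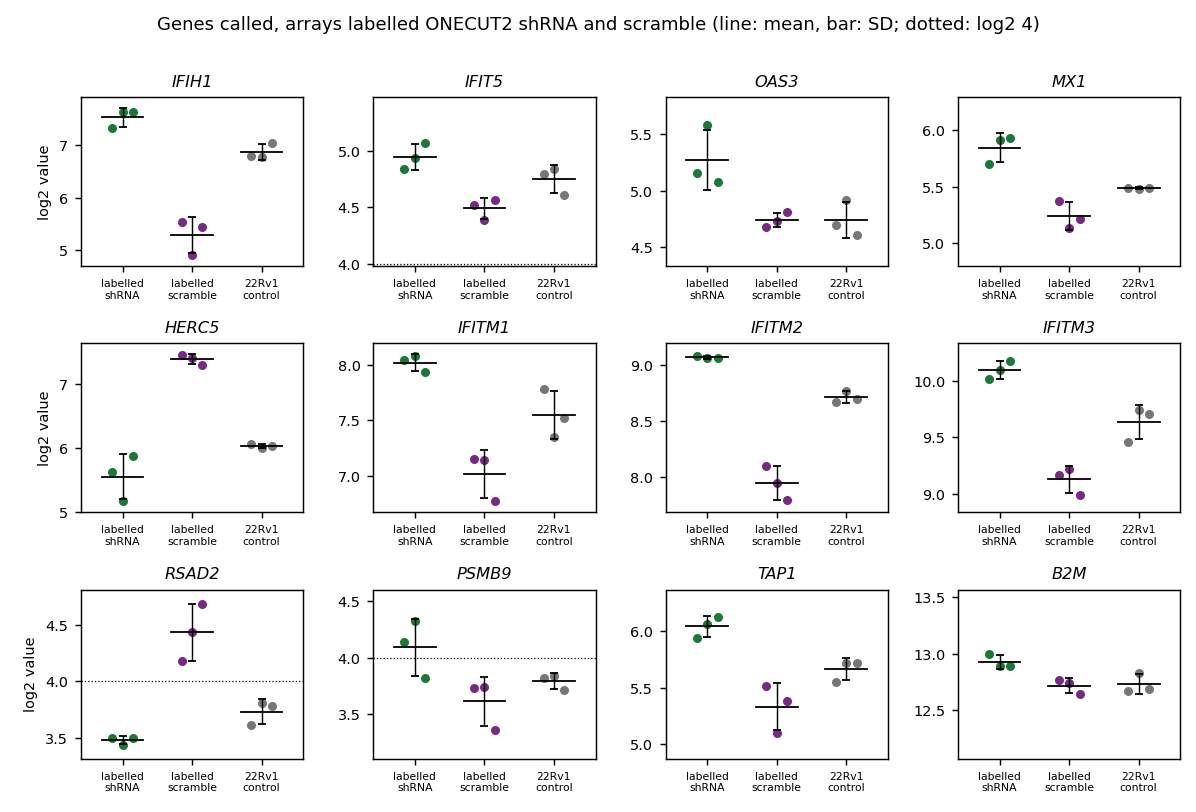
Log2 values on each 22Rv1 array for the 12 genes called between arrays labelled ONECUT2 shRNA and arrays labelled scramble, beside the 22Rv1 control arrays, with the mean (line) and the SD (bar). The control arrays lie between both for IFIH1, IFITM2 and TAP1, and the scramble-labelled arrays stand apart for HERC5 and RSAD2.

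Set against the shared 22Rv1 control, the arrays labelled scramble had 2 of the genes higher and 2 lower, 11.8% against 21.9% of all genes. Each direction held 5.88% of the 34, against 12.5% of all genes called higher and 9.4% called lower. The ONECUT2 probe set used above read 6.63, 6.71 and 7.08 in arrays labelled scramble, against 8.23, 8.15 and 8.25 in 22Rv1 control. The ONECUT2 level was thus lower in the arrays labelled scramble. HERC5 differed by 1.35 ± 0.16 (adjusted p = 1.71e-05), RSAD2 by 0.70 ± 0.24 (adjusted p = 0.044), IFITM2 by -0.77 ± 0.15 (adjusted p = 0.00138) and IFIH1 by -1.59 ± 0.28 (adjusted p = 0.000709). The arrays labelled ONECUT2 shRNA had 0 of the 34 genes called against 22Rv1 control by limma, against 4.46% of all genes (2.35% higher and 2.11% lower), with 9 at an unadjusted p under 0.05. A fit of only these 6 arrays called 8 genes higher, from 0.20 for B2M to 0.66 for IFIH1.

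The wider interferon pathway was read from 7 gene lists that hold none of the genes above. None of the 7 ligands with a probe set passed the filter, and their values ran from 1.41 to 3.61 on all arrays, IFNB1 included. For the counts that follow, the shares of all genes called were 36.5% higher and 24.3% lower in 22Rv1, and 34.1% higher and 28.0% lower in LNCaP. Of 6 receptor genes tested, 5 (83.3%) were higher and 0 lower in 22Rv1, and 4 (66.7%) were higher and 1 lower in LNCaP. IFNGR2, a chain of the interferon gamma receptor, rose by 1.52 ± 0.08 in 22Rv1 (adjusted p = 2.25e-10). IL10RB, a chain of the interferon lambda receptor, rose by 1.09 ± 0.15 in 22Rv1 (adjusted p = 1.37e-05) and 1.46 ± 0.15 in LNCaP (adjusted p = 5.07e-07).
Of 7 kinases and factors tested, all 7 rose in 22Rv1. The examples were STAT3 (2.01 ± 0.16, adjusted p = 1.56e-08), IRF5 (1.98 ± 0.21, adjusted p = 6.26e-07) and IRF2 (1.09 ± 0.13, adjusted p = 2.24e-06). In LNCaP 4 rose (57.1%) and 1 fell. IRF3, which acts below RNA sensors, rose by 1.14 ± 0.24 (adjusted p = 0.000538), and JAK2 read 5.68, 3.40 and 4.86 in LNCaP overexpression against 5.70, 5.81 and 5.66 in LNCaP control (-1.08 ± 0.35, adjusted p = 0.0132), with replicate 1 among the controls.
Of 6 nucleic acid sensing genes tested, 3 rose and 0 fell in each line. Of 4 brakes, 3 rose in 22Rv1 and 1 in LNCaP, with 0 lower. SOCS3, which inhibits JAK kinases, read 8.05, 7.87 and 7.75 in 22Rv1 overexpression, against 2.37, 2.74 and 2.34 in 22Rv1 control, at least 14.8-fold higher (adjusted p = 1.13e-09). In LNCaP it was at least 2.57-fold higher (adjusted p = 4.73e-07).
Of 21 further interferon-induced genes tested, 9 rose (42.9%) and 3 fell (14.3%) in 22Rv1, and 7 rose (33.3%) and 5 fell (23.8%) in LNCaP. The share that rose in LNCaP is near that of all genes. NMI, the partner of IFI35, rose by 2.56 ± 0.24 in 22Rv1 (adjusted p = 1.42e-07), and the antiviral exonuclease ISG20 by 1.91 ± 0.19 (adjusted p = 2.52e-07). In LNCaP the secreted glycoprotein gene LGALS3BP rose by 3.83 ± 0.25 (adjusted p = 1.8e-09), and TNFSF10, which encodes the death ligand TRAIL, fell by at least 2.25-fold (adjusted p = 1.22e-07).
Of 9 further antigen presentation genes tested, 8 rose (88.9%) and 0 fell in each line. HLA-B read 10.25, 10.13 and 10.05 in 22Rv1 overexpression, against 6.29, 6.49 and 7.14 in 22Rv1 control (3.50 ± 0.22, adjusted p = 1.18e-09), and it rose by 2.70 ± 0.22 in LNCaP (adjusted p = 1.82e-08). HLA-F rose by 2.31 ± 0.20 in 22Rv1 (adjusted p = 6.12e-08) and 2.40 ± 0.20 in LNCaP (adjusted p = 3.21e-08). The HLA genes are near-identical in places, so a probe set may read several of them.
Between arrays labelled ONECUT2 shRNA and arrays labelled scramble, 3 of the 53 pathway genes tested were higher (5.66%, against 13.4% of all genes) and 7 lower (13.2%, against 16.1%). SP110, a nuclear body gene, differed by -1.18 ± 0.16 (adjusted p = 4.9e-05), TAP2 by 1.23 ± 0.13 (adjusted p = 2.81e-06) and IFNGR2 by 1.10 ± 0.08 (adjusted p = 5.65e-08).

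The 43 genes are not evenly spread over the genome. In the RefSeq gene order, 25 of them have another member at most 2 protein-coding genes away, in 10 clusters. Neighbours did not always move alike. In 22Rv1, HERC5 rose and HERC6 was not called, MX1 rose and MX2 was not called, and IFITM3 rose while IFITM1 fell. On chromosome 6, TAP1 and PSMB9 rose in both lines. These pairs were picked after their values were seen, and no test was made of neighbours against other genes.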

How the data were processed

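The 18 arrays, Affymetrix Human U133 Plus 2.0 with 54675 probe sets in the table, carried total RNA. Per the submitters' processing notes, the authors made the deposited log2 values with GCRMA, whose version is not given in the sources used here. Whether all arrays were normalized together is not stated. Probe sets that name 1 gene (41097) were kept, with symbols updated by gene ID through RefSeq GRCh38.p14, and each gene was read from the probe set with the highest mean. Signal over background limits the precision: genes over log2 4 on at least 3 arrays were tested. A change against a group with all arrays under 4 is given as a bound, the other group's mean minus 4.

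All 18 arrays were fitted in 1 model with a mean per group, leaving 12 residual degrees of freedom, with limma 3.58.1 in R 4.3.3 (lmFit, eBayes with trend and robust options). Adjusted p-values are Benjamini-Hochberg values across every gene tested, and 7 comparisons were made. The script was tested on simulated data. Values on each array are printed for genes called with an absolute log2 change of at least 1, and pathway genes are named up to 4 per list and comparison by smallest p. The genes and lists were chosen with earlier results of these data known. Alternatives changed the array scaling, the filter, the floor at 4, the probe set rule, the variance model, the arrays in the fit and a replicate block, and left out each array in turn. Protein sequences were not used here.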

Additional observations from a re-analysis of the deposited data

Results flagged for a closer look

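For 18 genes the ONECUT2 change differed between the lines by a test of the difference itself (limma, Benjamini-Hochberg adjusted p under 0.05). Values are the LNCaP change minus the 22Rv1 change, on the log2 scale. The differences above 0 were IFIT1 at 3.25, IFIT3 at 1.99, IRF9 at 1.83, ISG15 at 1.83, PARP9 at 1.76, IFITM3 at 1.68, IFIT2 at 1.36, IFITM2 at 1.24, OASL at 1.16, TAP1 at 0.81 and IFIT5 at 0.63. Those below 0 were IFI44 at -1.99, DDX60 at -1.84, SAMD9 at -1.66, MX1 at -1.60, HERC5 at -1.24, EPSTI1 at -0.77 and IFI35 at -0.68. SAMD9 passed the filter through the LNCaP control arrays alone. IFI44 would not have passed without the LNCaP control arrays, nor IFIT1 without the LNCaP overexpression arrays. In 22Rv1, IFIT1, IFI44 and SAMD9 were under 4 in overexpression and control. With values under 4 set to 4, the IFIT2 difference was 2.49, that of IFIT3 3.17, and that of SAMD9 -0.44 with its call lost (adjusted p = 0.148). Averaging probe sets gave 1.40 for IFIT3 and -1.02 for IFI44. Without replicate 1 of LNCaP overexpression the IFI44 difference was -2.75.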

How the results depend on the processing

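No called change of a named gene reversed under any alternative run. In LNCaP overexpression, PARP9 (0.15) and IFITM1 (-0.08) were not called, and without replicate 1 they changed sign and were called at -0.41 and 0.43. In 22Rv1 overexpression the counts higher and lower were 18 and 4, and 17 to 18 and 4 to 5 leaving out single arrays. In LNCaP overexpression they were 22 and 6, and 21 to 25 and 5 to 8 leaving out single arrays. With probe sets averaged the LNCaP counts were 19 and 4. A fit of only the 6 LNCaP arrays gave 18 and 4, with 44.4% of all genes called against 62.2% in the main fit. Between arrays labelled ONECUT2 shRNA and scramble they were 10 and 2, and 7 to 9 and 2 leaving out single arrays; the 2 lower became 4 without the filter, 1 with values under 4 set to 4, 1 with probe sets averaged and 4 in a fit of only the arrays compared. For scramble against 22Rv1 control, the 2 higher became 1 with values under 4 set to 4, 1 with probe sets averaged and 1 to 2 leaving out single arrays, and the 2 lower became 4 with only the arrays compared. For shRNA against 22Rv1 control, the 0 higher became 1 with values under 4 set to 4 and 8 with only the arrays compared, and the 0 lower became 1 without the filter and 0 to 1 leaving out single arrays. For LNCaP control against 22Rv1 control, the 5 lower became 3 with values under 4 set to 4, where IFIT1, IFIT2, PARP14 and TRIM22 lost their calls. The difference between lines counted 10 to 17 higher and 6 to 9 lower leaving out single arrays. With a replicate block the counts were 18 and 4 in 22Rv1 overexpression, 21 and 7 in LNCaP overexpression, and 10 and 2 for shRNA against scramble. Same-numbered arrays deviated from their group means at correlations from -0.22 to 0.43. Differently numbered arrays were not compared, so these values cannot say whether the numbers pair the arrays. Except where a setting tests fewer genes, floors low values or drops arrays, the cause was not tested.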

Other observations

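A pair of further interferon-induced genes, chosen after their values were seen, separated replicate 1 of LNCaP overexpression from the rest. SP100, a nuclear body gene, read 6.67, 3.52 and 3.86 in LNCaP overexpression, against 7.81, 8.30 and 7.57 in LNCaP control (-3.21 ± 0.54 SE, adjusted p = 9.31e-05). GBP2, a guanylate-binding protein gene, read 4.70, 3.77 and 3.75 in LNCaP overexpression, against 5.78, 5.40 and 5.95 in LNCaP control (-1.64 ± 0.21, adjusted p = 5.9e-06). In both, all overexpression arrays were below the controls.

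Other ONECUT2 probe sets did not all move alike. One went the other way in 22Rv1, at 4.70, 4.35 and 4.32 in 22Rv1 overexpression, against 5.04, 5.48 and 5.75 in 22Rv1 control, and read 4.22, 3.40 and 4.04 in LNCaP overexpression, against 3.65, 3.70 and 3.61 in LNCaP control. A lower-signal one showed a wider gap than the one used above. It read 5.23, 7.17 and 7.43 in LNCaP overexpression, against 2.99, 2.74 and 3.04 in LNCaP control, and 4.78, 4.14 and 4.21 in 22Rv1 overexpression, against 3.05, 3.44 and 3.25 in 22Rv1 control.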
